A study of Mus musculus with 6 samples.

Results

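Myh6, Myh7, Myh7b and Mybpc3 encode 3 myosin heavy chains of heart muscle and the cardiac myosin-binding protein C, and the peaks of histone H3 lysine 27 acetylation (H3K27ac) at these 4 genes are described here in mouse left ventricle. The 4 genes were chosen by name, with earlier results of these data known. They are among the 21631 protein-coding genes of the RefSeq table on chromosomes 1 to 19 and X. A peak was assigned to a gene where it overlapped the RefSeq gene body or the 10 kb on either side of it, called the window below. Across the 6 libraries 119 distinct peaks were assigned, 91 in wild-type lists and 28 in knockout lists.

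H3K27ac was profiled by CUT&RUN, which releases antibody-bound chromatin with a tethered nuclease, in cardiomyocyte nuclei that had been sorted with an antibody to PCM-1. The tissue was left ventricle from FVB animals, 8 to 12 weeks old. The WT group was wild type and the HOM group carried a homozygous CRISPR deletion of Nppa and Nppb, which encode the natriuretic peptides ANP and BNP, with 3 libraries each. The husbandry text of the labels also names Myh6-MerCreMer, nTnG and Sun1/sfGFP mice on FVB/N. It does not say whether the mice of these 6 libraries carried any of them. Myh6-MerCreMer is driven by a Myh6 promoter, whose copies would give reads at the start of Myh6 and upstream of it. How far upstream is not given here, and the part of these copies in the peaks there was not tested. Whether each library came from its own mouse is not stated in the labels. The p-values below thus measure only the variation among these libraries, which may be technical.

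Myh6 encodes alpha-myosin heavy chain, the fast ATPase motor of the adult rodent ventricle, and Myh7 encodes beta-myosin heavy chain, the slower motor of the fetal ventricle and of slow skeletal muscle. The pair lies head to tail on the same strand, and re-expression of Myh7 with loss of Myh6 is a textbook feature of rodent hypertrophy and failure, as is the rise of Nppa and Nppb. Myh7b encodes a related slow/cardiac myosin, and Mybpc3 encodes a thick filament protein that binds myosin and regulates cross-bridge cycling. Introns of the myosin genes host the myomiRs miR-208a (Myh6), miR-208b (Myh7) and miR-499 (Myh7b). H3K27ac marks active promoters and enhancers.

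In mm10, Myh6 (gene 17888) occupies chr14:54941921-54968017 on the minus strand and Myh7 (gene 140781) chr14:54970684-54994626 on the same strand. Both are transcribed towards lower positions, so the 3′ end of Myh7 faces the 5′ end of Myh6. Only 2666 bases separate the gene bodies, and 27942 bases separate their RefSeq starts. The 10 kb windows of the pair therefore share 17334 bases, and peaks in the shared stretch are counted for both genes. The RefSeq start of Myh6 in the promoter table, 54966607, lies 1410 bases inside the upper end of the gene body. Myh7b (gene 668940) occupies chr2:155611243-155634307 and Mybpc3 (gene 17868) chr2:91118114-91136516, both on the plus strand. Exons and introns are not given here, because the RefSeq table used holds gene bodies only.

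The 250 bases before the RefSeq start of each gene are shown because they are the stretches against which peaks were set below, and all 4 genes matched the RefSeq promoter table (GRCm38.p6, the assembly that mm10 names). Each is written 5′ to 3′ on the gene's own strand, and capitals mark the motif matches found.
Myh6, chr14:54966608-54966857, minus strand: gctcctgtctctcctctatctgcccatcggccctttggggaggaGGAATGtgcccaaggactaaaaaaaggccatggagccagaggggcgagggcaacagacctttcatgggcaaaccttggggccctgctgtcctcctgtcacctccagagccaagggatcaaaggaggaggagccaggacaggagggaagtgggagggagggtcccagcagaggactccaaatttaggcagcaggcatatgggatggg
Myh7, chr14:54994550-54994799, minus strand: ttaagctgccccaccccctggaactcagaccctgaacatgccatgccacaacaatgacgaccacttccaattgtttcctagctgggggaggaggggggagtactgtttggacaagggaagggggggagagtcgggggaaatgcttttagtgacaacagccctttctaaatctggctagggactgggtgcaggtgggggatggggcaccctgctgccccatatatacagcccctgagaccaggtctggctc
Myh7b, chr2:155610993-155611242, plus strand: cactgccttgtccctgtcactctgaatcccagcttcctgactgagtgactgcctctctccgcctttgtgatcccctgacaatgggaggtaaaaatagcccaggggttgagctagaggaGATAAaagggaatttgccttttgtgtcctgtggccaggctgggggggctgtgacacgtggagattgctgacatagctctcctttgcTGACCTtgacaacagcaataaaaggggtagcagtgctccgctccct
Mybpc3, chr2:91117894-91118143, plus strand: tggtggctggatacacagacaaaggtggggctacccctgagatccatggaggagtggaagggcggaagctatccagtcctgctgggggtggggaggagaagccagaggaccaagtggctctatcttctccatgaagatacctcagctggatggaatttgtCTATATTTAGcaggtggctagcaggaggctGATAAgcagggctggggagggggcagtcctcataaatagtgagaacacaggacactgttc
The motifs searched, on both strands, were the TATA box as TATAAA, the core of the TEAD factor element as CATTCC, the core of the GATA factor site as GATAA, the nuclear receptor half-site as AGGTCA, and the MEF2 pattern. In the Myh6 promoter CATTCC lay on the other strand, 206 to 201 bases before the start, and 12.6% of 32851 RefSeq promoters held it within the same 250 bases. In the Myh7b promoter GATAA lay 132 to 128 bases and AGGTCA, on the other strand, 46 to 41 bases before the start. These motifs occurred in 22.6% and 14.0% of all promoters. In the Mybpc3 promoter GATAA lay 60 to 56 bases and the MEF2 pattern 90 to 81 bases before the start, and 3.20% of all promoters held the second. Neither these motifs nor TATAAA, held by 12.4% of all promoters, matched the 250 bases before Myh7. A match describes letters in the window and is not a binding site.

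The mature myomiRs hosted by the myosin genes are shown with the seed, bases 2 to 8, in capitals (RefSeq, GRCm38.p6).
mmu-miR-208a-3p: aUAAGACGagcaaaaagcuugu
mmu-miR-208b-3p: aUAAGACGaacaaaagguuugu
mmu-miR-499-5p: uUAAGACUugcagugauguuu
miR-208a-3p and miR-208b-3p shared the seed UAAGACG and differed at 3 positions, G10A, A16G and C18U, counted from 1 at the 5′ end with the miR-208a base first. miR-499-5p has another base at the end of its seed, G8U against both. Their genes lie at chr14:54949060-54949142 (Mir208a), chr14:54975700-54975776 (Mir208b) and chr2:155622880-155622958 (Mir499). Only the Mir208b gene was overlapped by an H3K27ac peak, in WT replicate 2, where 24 bases lay under chr14:54975753-54975961 with a fold of 4.43. The share of other stretches as short as these genes that lie under peaks was not computed, so this is a description. The peak nearest to Mir208a was 3534 bases away in WT replicate 3 and at least 16222 bases away in the other libraries. The peak nearest to Mir499 was 3365 bases away in WT replicate 3 and at least 7972 bases away in the others.

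The 6 lists differed greatly in length, and this bears on every count below. Values are given in the order of replicates 1, 2 and 3 throughout. WT replicates 1, 2 and 3 held 21340, 72362 and 106605 peaks covering 6.69, 31.6 and 55.7 Mb, and HOM replicates 1, 2 and 3 held 48102, 1462 and 15184 peaks covering 17.2, 0.296 and 4.54 Mb. The lists give no read counts, so depth is unknown and an uncalled gene is one not called at that library's depth. HOM replicate 2 stood apart, with the fewest and narrowest peaks, a median of 84 bases wide against 232 to 291 in the others, and results are given with and without it. WT replicate 1 and HOM replicate 1 held 149 and 156 peaks on the Y chromosome and the other libraries 18 to 44. These counts are not set against list length. On the lower part of that chromosome, WT replicate 1 and HOM replicate 1 held 111 and 112 peaks and the others 1 to 5. Peaks on this lower part formed the sets of libraries used below. The libraries thus also differ in a way that genotype does not give. The targeted interval from Nppb to Nppa held 1, 2 and 4 peaks in the WT libraries and 0 in each HOM library. Of 6 cardiomyocyte markers, all 6 had a peak in the window in 5 libraries and 0 in HOM replicate 2. Of 4 fibroblast markers 0 had one in any library. Of 4 markers each, endothelial cells had 1, 2, 3, 1, 0 and 1, immune cells 0, 2, 2, 2, 0 and 1, atrial muscle 0, 2, 2, 1, 0 and 0, skeletal muscle 2, 2, 2, 2, 0 and 1, and smooth muscle cells and pericytes 1, 2, 3, 1, 0 and 0 (WT replicates 1 to 3, then HOM replicates 1 to 3). The atrial markers Myl7 and Sln and the immune markers Ptprc and Csf1r had 0 in every library. The other atrial markers, Myl4 and Nr2f2, had a peak in the window in 3 and 2 libraries. The other immune markers, Cd68 and Cd3e, had one in 4 and 3 libraries.

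All 4 genes had H3K27ac peaks in the window in all 3 WT libraries and in HOM replicates 1 and 3, and none had one in HOM replicate 2. The shares of all protein-coding genes with a peak in the window were 26.5%, 51.4% and 61.1% in the WT libraries and 41%, 2.46% and 20.8% in the HOM libraries. In total 3621 genes, 16.7% of all, had a peak in those same 5 libraries. Of these, 3167 had none in HOM replicate 2, which is 14.6% of all genes. Being called in 5 lists and missed in the shortest is therefore a pattern that the members share with many genes. The 4 calls are not 4 separate loci. In WT replicate 1 and HOM replicate 3 every peak counted for Myh7 was also counted for Myh6. Myh7 and Mybpc3 in WT replicate 1 and Myh7b in HOM replicate 3 had 0 peaks on the gene body.

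Myh6 was marked by 1, 10 and 11 peaks in the WT libraries and by 8, 0 and 2 peaks in the HOM libraries. They covered 237, 3714 and 6462 bases of the window in WT and 2080, 0 and 561 bases in HOM. The genotypes overlapped, since WT replicate 1 had less than HOM replicates 1 and 3. All peaks of WT replicate 1, HOM replicate 1 and HOM replicate 3 lay upstream of the RefSeq start. The region called in the most libraries was chr14:54966832-54969125, 225 to 2518 bases upstream, with peaks in 5 of the 6. Within it the strongest peak of each library was summited 509, 540, 1637, 521 and 985 bases upstream in WT replicates 1, 2 and 3 and HOM replicates 1 and 3. In 4 of the libraries the same 237 bases, chr14:54967040-54967276, were under a peak, and HOM replicate 3 was the exception.

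The strongest Myh6 peaks by the authors' fold, the enrichment at the summit, were among the upper 10% of their list in 4 libraries and not in HOM replicate 3. They lay at chr14:54967040-54967276, chr14:54966832-54967592 and chr14:54969204-54971788 in WT replicates 1, 2 and 3, at chr14:54966985-54967284 in HOM replicate 1 and, in a tie, at chr14:54967530-54967729 and chr14:54970449-54970809 in HOM replicate 3. These peaks were 237, 761 and 2585 bases wide in WT and 300, 200 and 361 bases wide in HOM. Their folds were 6.05, 10.1 and 11.2 in WT replicates 1, 2 and 3, at ranks 1819, 822 and 3384 of their lists, so that 8.52%, 1.13% and 3.17% of peaks had a higher fold. In HOM replicate 1 the fold was 7.17 at rank 1800, with 3.74% of peaks higher. In HOM replicate 3 both peaks had a fold of 4.20 at rank 10879, with 71.6% of peaks higher. Folds are the authors' own values per peak, and the ranks were computed from them. Ranks from lists of unequal length cannot measure a change between libraries. The weakest Myh6 peaks ranked 57530 and 97456 in WT replicates 2 and 3 and 29688 in HOM replicate 1.

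The 250 bases before the Myh6 start lay outside peaks in 4 libraries. They were covered to 10.4% and 72.8% in WT replicates 2 and 3 and to 0% in the other 4 libraries. The peak nearest to the start began 433, 225 and 8 bases upstream in the WT libraries and 378 and 923 bases upstream in HOM replicates 1 and 3. The body of Myh6 below its start, 24687 bases, was covered to 1.11% and 3.80% in WT replicates 2 and 3 and to 0% elsewhere. The 10 kb below the 3′ end, which hold Il25 and most of Cmtm5, had 0 peaks in every library.

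Myh7 was marked by 1, 14 and 25 peaks in the WT libraries and by 9, 0 and 2 in the HOM libraries, but most of these are the peaks of Myh6. The shared stretch of the windows held 1, 10 and 10 of them in WT and 8, 0 and 2 in HOM. Peaks of the Myh7 window alone numbered 0, 4 and 15 in WT and 1, 0 and 0 in HOM. WT replicate 3, the longest list, thus held most of them. The highest folds and ranks in this window are those given for Myh6.

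No peak lay within 1 kb of the start of Myh7 outside WT replicate 3. The nearest was 27273, 1870 and 150 bases from the start in the WT libraries and 4207 and 23740 bases in HOM replicates 1 and 3. Within 1 kb of the start, peaks covered 29.8% in WT replicate 3 and 0% in the other 5 libraries. The second RefSeq start of Myh7 lies 77 bases upstream of the one used. The 250 bases printed above were covered to 40.4% in WT replicate 3 and to 0% elsewhere.

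**Figure D1:**
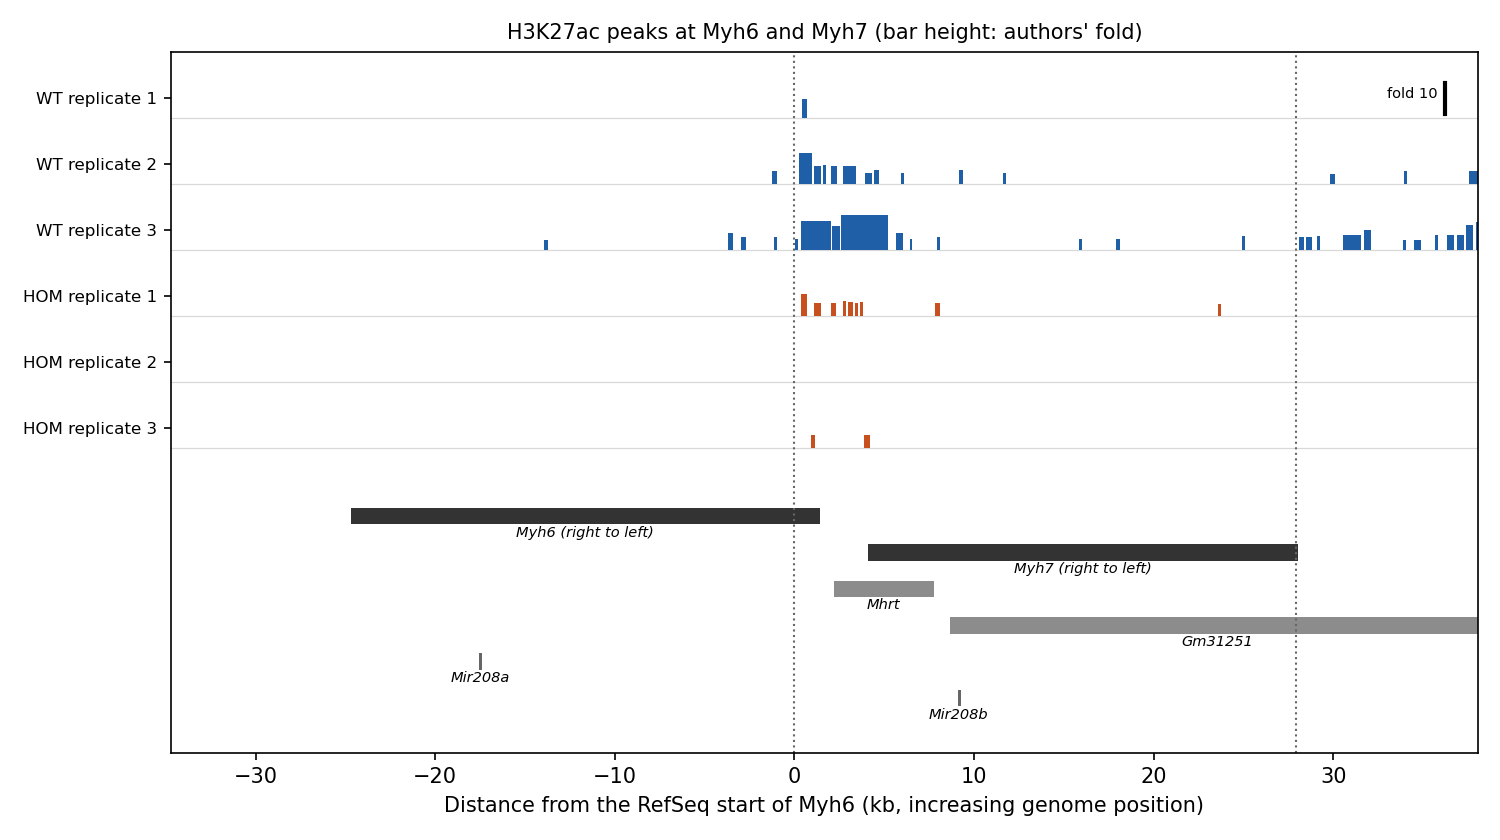
Peaks of the 6 lists (rows) across the joint windows of Myh6 and Myh7, against the distance in kb from the RefSeq start of Myh6; bar width is peak width, bar height is the authors' fold, and dotted lines mark the starts of Myh6 (left) and Myh7 (right). Peaks gathered just upstream of the Myh6 start in 5 libraries, while a peak within 1 kb of the Myh7 start was called in WT replicate 3 only, and HOM replicate 2 had 0 peaks.

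Peaks were concentrated between the 5′ end of Myh6 and the 3′ end of Myh7, and in WT replicate 3 also above Myh7. The stretch from the Myh6 start to 5 kb inside Myh7, chr14:54966607-54975684, makes up 9078 of the 72706 bases of the joint windows. It held 100%, 67.9% and 49.3% of all covered bases in the WT libraries and 92.6% and 100% in HOM replicates 1 and 3. The share was lower in the longer lists, and the 100% of WT replicate 1 and HOM replicate 3 rests on 1 and 2 peaks, which covered 2.61% and 6.18% of the stretch. In WT replicate 3 the 10 kb above Myh7 held 37.3% of the covered bases. The limits of this stretch were chosen with the peaks in view, so its share is a description. Whether copies of a Myh6-MerCreMer promoter add to the peaks in this stretch was not tested.

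The 2666 bases between the gene bodies were covered to 0%, 55.7% and 93.2% in WT replicates 1, 2 and 3 and to 43.4%, 0% and 8.81% in HOM replicates 1, 2 and 3. The 1410 bases from the Myh6 start to the end of its annotated body were covered to 16.8%, 77.0% and 86.1% in WT and to 44.6%, 0% and 14.2% in HOM. Coverage fell off into Myh7. Its lower 5 kb were covered to 0%, 13.2% and 36.5% in WT and to 5.88%, 0% and 2.52% in HOM, and the remaining 18943 bases to at most 2.95%. A second region, chr14:54969204-54971788, spanned the space between the genes and the 3′ end of Myh7 and was called in WT replicates 2 and 3 and HOM replicates 1 and 3. In WT replicate 3 it was 1 peak of 2585 bases with a fold of 11.2, the strongest of the pair in that list.

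Peaks did not run on without a break across the body of Myh7. The longest peak-free stretch between peaks of the joint windows ran from 54978395 to 54996418 in WT replicate 2, 18024 bases over most of Myh7 and its start. In HOM replicate 1 it was 15470 bases inside Myh7, from 54974707 to 54990176. In WT replicate 3 it was 9992 bases and lay inside Myh6 instead, from 54952890 to 54962881. Above the start of Myh7, the 10 kb flank was covered to 8.78% and 41.8% in WT replicates 2 and 3, by 3 and 12 peaks, and to 0% in the other libraries.

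Non-coding genes run through the same stretch. Mhrt, a cardiac long non-coding RNA transcribed antisense to Myh7, was overlapped by 0, 5 and 4 peaks in the WT libraries and by 5, 0 and 1 in the HOM libraries. Gm31251, annotated as a long non-coding RNA over most of Myh7 and its upstream flank, was overlapped by 0, 5 and 15 peaks in WT and by 1, 0 and 0 in HOM. Gm52092, inside Myh6, was overlapped by 1 peak, in WT replicate 3. Peaks carry no strand, so acetylation of these genes, of the 3′ end of Myh7 and of the 5′ flank of Myh6 cannot be told apart. Myh6 and Myh7 are also highly similar over much of their coding sequence, and how reads that match both were handled is not given in the sources used here.

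Per length of gene body, Myh6 and Myh7 did not differ beyond the spread between libraries, and the sign of the difference depended on how bodies and peaks were counted. Peaks covered 0.908%, 5.20% and 8.25% of the Myh6 body in the WT libraries and 2.41%, 0% and 0.766% in HOM. They covered 0%, 4.33% and 9.96% of the Myh7 body in WT and 1.92%, 0% and 0.526% in HOM. Myh6 was higher in 4 libraries, Myh7 in WT replicate 3, and HOM replicate 2 was at 0 for both. The mean within-library difference, Myh6 minus Myh7, was 0.135 ± 0.969 percentage points (SD, n = 6, two-sided exact sign-flip permutation p = 0.8125). The sign turned to -1.97 percentage points, with Myh6 higher in 0 libraries, when the Myh6 body was ended at its RefSeq start. The exact sign-flip p was 0.125, the smallest possible with WT replicate 1 and HOM replicate 2 at 0. With whole bodies, the mean difference was also -0.0202 without WT replicate 1 and -0.0139 without WT replicate 2. It rose to 1.34 when peaks with at least 50% of their length inside a body were counted whole (exact p = 0.0625, the smallest possible with 1 library at 0), and lay at 0.486 to 0.911 at equal list lengths.

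Around the starts themselves the pair differed in 1 direction in each of the 5 libraries with peaks. Within 1 kb on each side of the start, peaks covered 11.8%, 39.5% and 42.1% at Myh6 in the WT libraries and 15.0%, 0% and 3.90% in HOM. The corresponding shares at Myh7 were 29.8% in WT replicate 3 and 0% in the other 5. Myh6 exceeded Myh7 by 13.8 ± 13.8 percentage points (SD, n = 6, two-sided exact sign-flip permutation p = 0.0625). This comparison was chosen after the peaks had been seen, and with 1 library at 0 for both genes 0.0625 is the smallest p the test allows.

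Myh7b carried its strongest H3K27ac peak about 5 kb upstream of its start in 4 libraries, and in HOM replicate 1 the peak there tied in fold with one at chr2:155611520-155611791, summited 385 bases downstream of the start. Peaks in its window numbered 5, 9 and 17 in the WT libraries and 7, 0 and 2 in the HOM libraries. They covered 1538, 3500 and 7109 bases in WT and 2538, 0 and 849 bases in HOM. The genotypes overlapped, with HOM replicate 1 above WT replicate 1.

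The region called in 5 libraries was chr2:155605643-155607225, 4018 to 5600 bases upstream, and 316 of its bases were under a peak in all 5. The summits of its strongest peaks lay within 305 bases of each other, at 5289, 5193 and 5289 bases upstream in the WT libraries and 5034 and 5339 bases upstream in HOM replicates 1 and 3. These peaks began at 155605730, 155605737 and 155605643 in WT and at 155605782 and 155605746 in HOM, and their widths were 368, 717 and 1583 bases in WT and 724 and 646 bases in HOM. No protein-coding gene of the RefSeq table lies within the 10 kb upstream of Myh7b.

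The folds of these upstream peaks were 6.45, 9.67 and 13.0 in WT replicates 1, 2 and 3, at ranks 1094, 1128 and 1585. In these lists 5.12%, 1.56% and 1.49% of peaks had a higher fold. In HOM replicates 1 and 3 the folds were 6.04 and 6.30 at ranks 5459 and 882, with 11.3% and 5.80% of peaks higher. Within the list of WT replicate 3, the Myh7b peak had the highest fold of all peaks assigned to the 4 genes.

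At the Myh7b start itself, peaks flanked a gap. A region 132 to 894 bases upstream was called in the 3 WT libraries and HOM replicate 1, and 397 of its bases were shared by all 4. Another began 11 bases downstream of the start and was called in the same 4 libraries. The peak-free gap that held the start was 1220, 244 and 247 bases in WT replicates 1, 2 and 3 and 510 bases in HOM replicate 1. The promoter stretch printed above was covered to 0.4%, 6.8% and 47.6% in WT and to 6.8%, 0% and 0% in HOM. HOM replicate 3 had 0 peaks on the gene body, and its peak nearest to the start ended 4426 bases upstream. Peaks beyond the 3′ end fell on Trpc4ap, the converging neighbour, which over its whole length was overlapped by 0, 6 and 13 peaks in WT and by 1, 0 and 0 in HOM.

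Mybpc3 was marked at its start and just upstream. Peaks in its window numbered 1, 9 and 9 in the WT libraries and 6, 0 and 2 in the HOM libraries. They covered 285, 3680 and 6866 bases in WT and 1945, 0 and 470 bases in HOM. As at Myh6, WT replicate 1 was below HOM replicates 1 and 3 here, and the genotypes overlapped.

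The region called in 5 libraries, chr2:91116954-91120637, ran from 1190 bases upstream to 2493 bases downstream of the start. In WT replicate 3 it held the widest peak at any of the 4 genes, 3632 bases, which contained the start. In WT replicate 2 and HOM replicate 1, peaks left gaps of 210 and 184 bases around the start. The leading peak was summited 869 and 319 bases upstream in WT replicates 1 and 2, 506 bases downstream in WT replicate 3, 286 bases upstream in HOM replicate 1 and 229 bases downstream in HOM replicate 3. These leading peaks were at chr2:91117175-91117459, chr2:91117691-91117963 and chr2:91117006-91120637 in WT and at chr2:91117703-91117970 and chr2:91118250-91118540 in HOM. The printed promoter was covered to 0%, 28% and 100% in WT and to 30.8%, 0% and 0% in HOM.

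The leading folds at Mybpc3 were 5.24, 7.25 and 11.6 in WT replicates 1, 2 and 3 at ranks 4654, 6177 and 2816, with 21.8%, 8.53% and 2.64% of peaks higher. In HOM replicates 1 and 3 they were 6.41 and 6.30 at ranks 3807 and 882, with 7.91% and 5.80% higher. A second region 1697 to 2972 bases upstream, chr2:91115172-91116447, was called in WT replicates 2 and 3 and HOM replicates 1 and 3. It overlaps the 3′ end of Spi1, a myeloid transcription factor gene that ends at 91115759. Spi1 itself was overlapped by 0, 2 and 2 peaks in WT and by 1, 0 and 0 in HOM. Of the 4 immune markers, 0, 2 and 2 carried peaks in the WT libraries and 2, 0 and 1 in the HOM libraries, and their part in this region was not tested. Madd, on the other side, was overlapped by 0, 0 and 1 peak in WT and by 1, 0 and 0 in HOM.

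**Figure D2:**
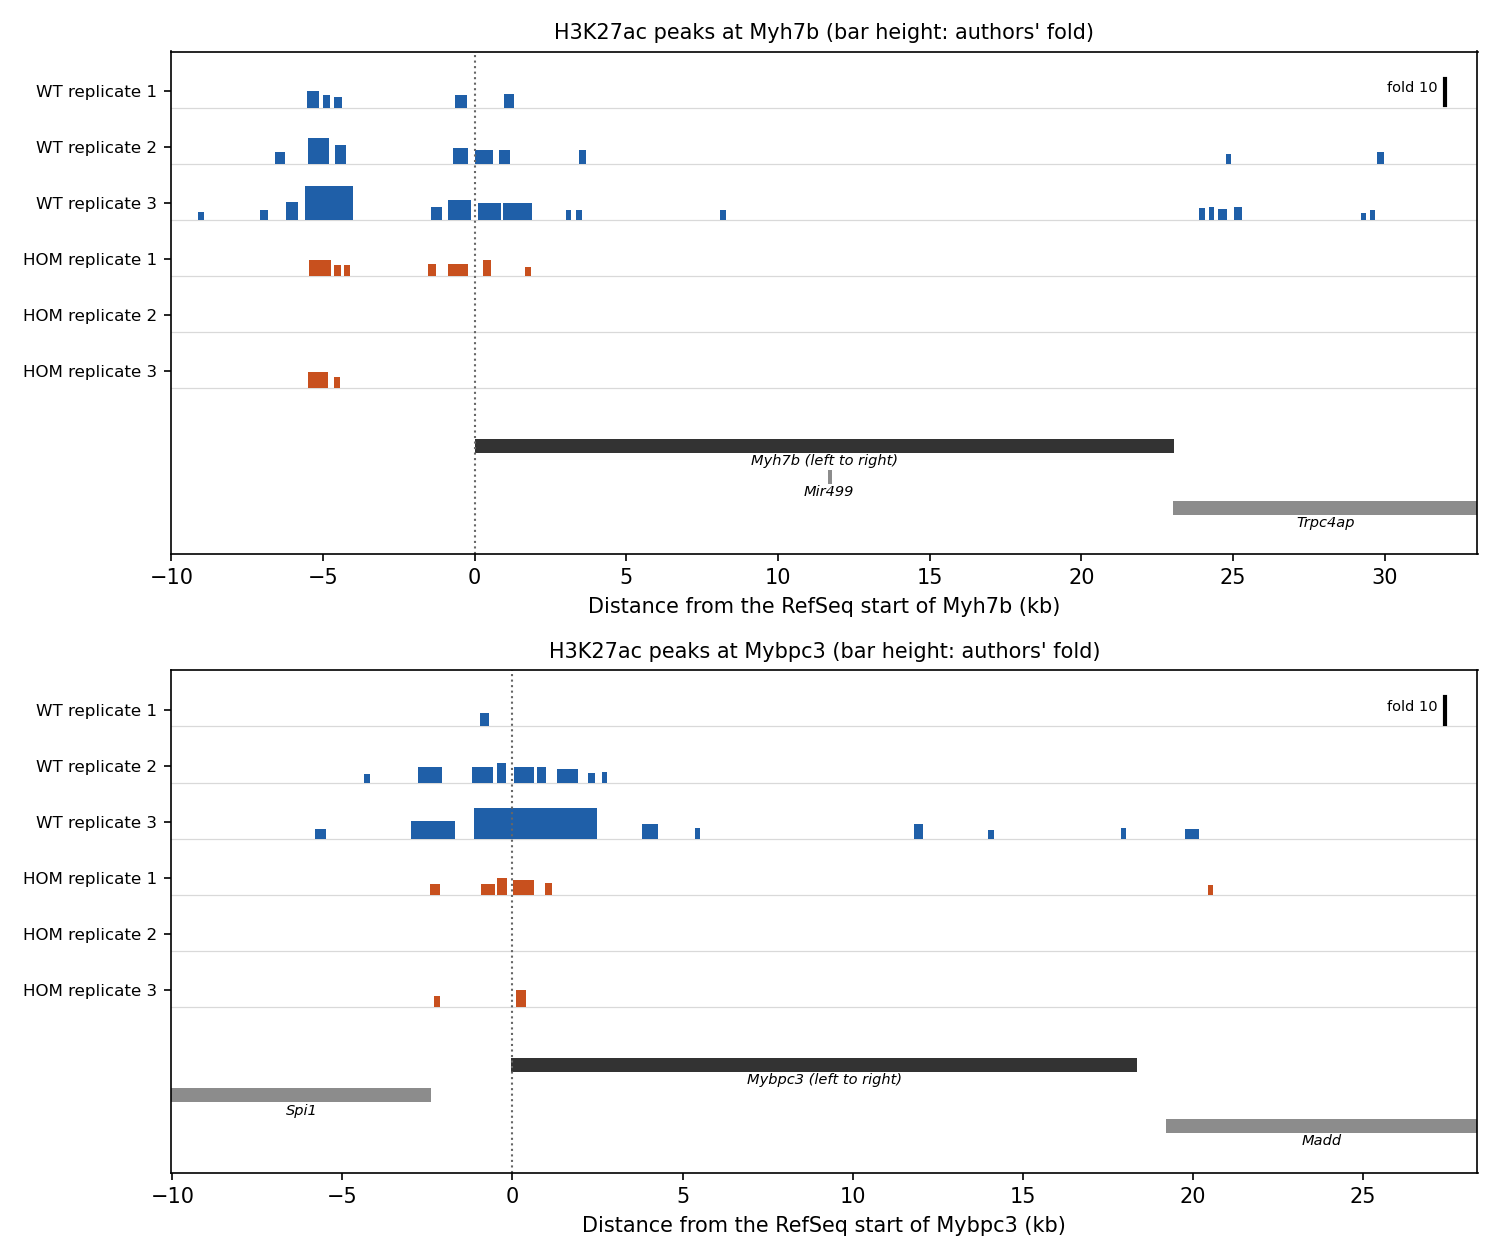
Peaks of the 6 lists (rows) in the windows of Myh7b (top) and Mybpc3 (bottom), against the distance in kb from the RefSeq start (dotted line); bar width is peak width and bar height is the authors' fold. Peaks upstream of Myh7b stacked about 5 kb from its start in 5 libraries, with summits 5034 to 5339 bases away and, in HOM replicate 1, a tie in fold with a peak downstream of the start, while the leading peaks of Mybpc3 lay from 869 bases upstream to 506 bases downstream of its start.

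Coverage near the start was compared among the 4 genes as a description. Within 1 kb of the start, in the 5 libraries without HOM replicate 2, the median covered share was 66.8% at Mybpc3 (range 14.2% to 100%), 46.6% at Myh7b (0% to 77.8%), 15.0% at Myh6 (3.90% to 42.1%) and 0% at Myh7 (0% to 29.8%). The ranges of all 4 genes overlapped, and the order did not hold within every library. In WT replicate 1 Myh7b stood at 21.3% and Mybpc3 at 14.2%, and in HOM replicate 3 Myh6 stood at 3.90% and Myh7b at 0%. Peaks within 1 kb of the start were called at Myh6 and Mybpc3 in 5 of these libraries, at Myh7b in 4 and at Myh7 in 1. Merged over libraries, the windows held 11 regions at Myh6, 27 at Myh7, 18 at Myh7b and 12 at Mybpc3. Of these, 6, 20, 12 and 10 came from a single library.

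Most of the 119 peaks were ordinary in width and fold. They were 162 to 3632 bases wide with a median of 273, and 5 were 1 kb or wider. The number with a fold above the median of their own list was 4 of 7, 17 of 32 and 24 of 52 in the WT libraries and 6 of 22 and 2 of 6 in HOM replicates 1 and 3. Over the whole lists 35.2%, 47.9% and 45.6% of peaks in WT and 45.1% and 47.6% in HOM lay above that median, since many peaks tie at it. Peaks in the upper 10% of their list numbered 2, 4 and 5 in the WT libraries and 2 and 2 in HOM replicates 1 and 3.

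**Figure D3:**
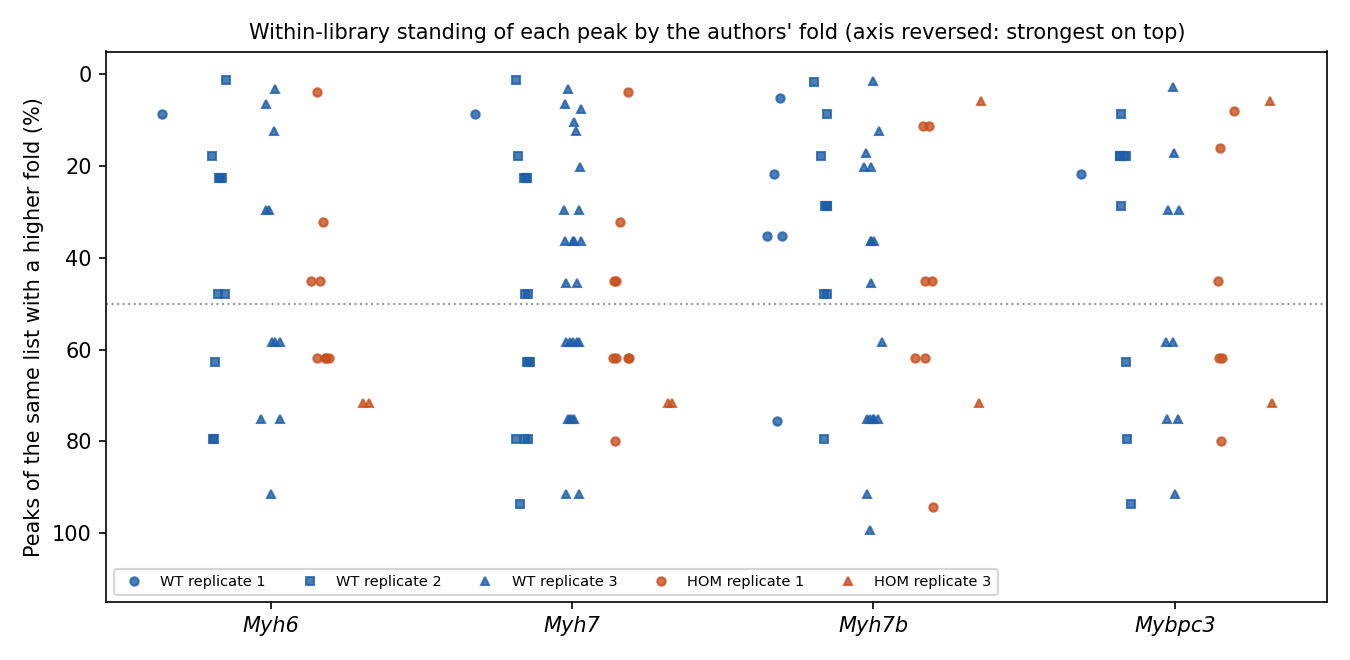
Share of peaks of the same list with a higher fold (%, axis reversed so that the strongest peaks are on top) for every peak in the windows of the 4 genes; each point is 1 peak, coloured and shaped by library, and the dotted line is 50%. The strongest peak of each gene had under 22% of its list above it in the WT libraries and HOM replicate 1. In HOM replicate 3 the strongest peaks of Myh7b and Mybpc3 had 5.80% and both peaks counted for Myh6 and Myh7 had 71.6% above them, and HOM replicate 2 had 0 peaks.

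Among all protein-coding genes, the members ranked high by the share of the window under peaks. The members were chosen with earlier results of these data known, so this standing is a description. Any gene with a peak ranks above all genes without one on this scale. Their percentiles in WT replicates 1, 2 and 3 were 80.6, 91.5 and 91.1 for Myh6, 81.0, 94.2 and 96.7 for Myh7, 96.8, 91.6 and 93.0 for Myh7b and 84.4, 93.1 and 93.9 for Mybpc3. In HOM replicates 1 and 3 all 4 genes lay between the percentiles 91.8 and 95.4. In HOM replicate 2 all 4 shared 48.8 with every gene that had no peak. The covered shares of Myh6, Myh7 and Mybpc3 in WT replicate 1 (0.514%, 0.539% and 0.742%) were below 0.903%, the median of windows with a peak. Myh7b, at 3.57%, was above it. All 4 genes were above the median of their library in WT replicates 2 and 3 and HOM replicates 1 and 3. Myh7b was the highest of the 4 in WT replicate 1 and HOM replicates 1 and 3, and Myh7 in WT replicates 2 and 3. The Myh7 percentiles include the stretch shared with the Myh6 window. On the Myh7 body lay 0 of 237, 1036 of 4757 and 2384 of 10983 covered bases in WT replicates 1, 2 and 3.

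**Figure D4:**
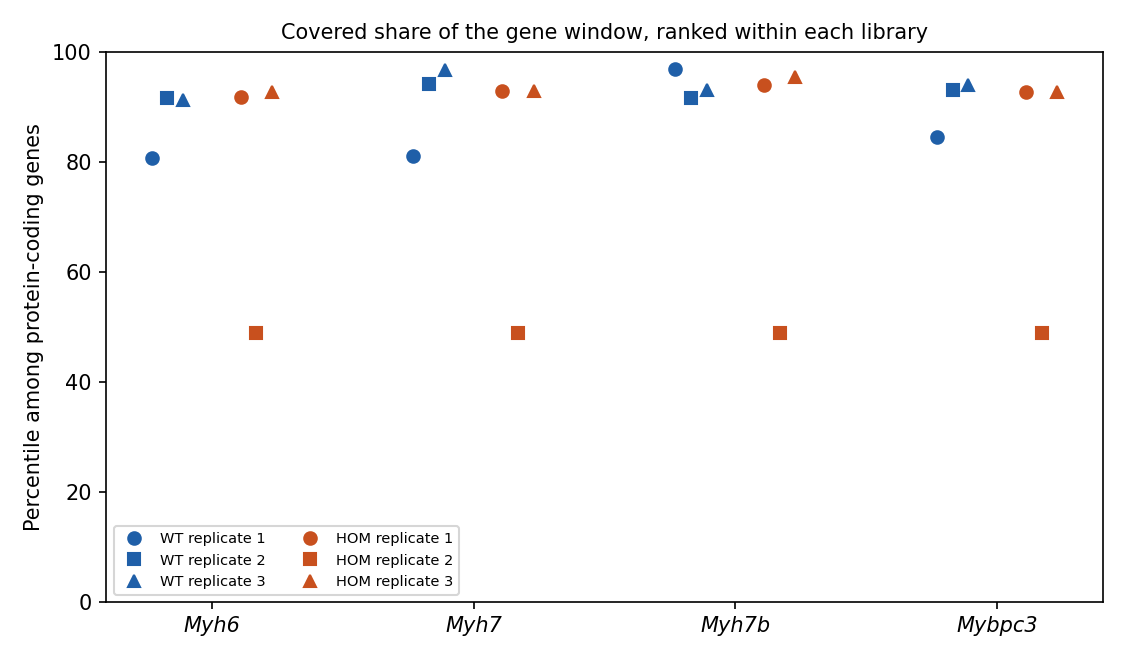
Percentile of each gene's covered share of the window among 21631 protein-coding genes, by library (colour: genotype; symbol: replicate number). Outside HOM replicate 2, at 48.8 for all 4 genes, the points lie between 80.6 and 96.8, and Myh7b stands above the others in WT replicate 1. The Myh7 points include peaks in the stretch shared with the Myh6 window.

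The protein-coding genes whose percentiles over the 6 libraries were most like each member lay on other chromosomes. They were Fbxo30, Rit1 and Olfml1 for Myh6, with mean absolute differences of 0.540, 0.696 and 0.724 percentile points, and Twf2, Paqr7 and Rfwd3 for Myh7, with 1.08, 1.10 and 1.22. For Myh7b they were Ppp4c, AW549877 and Maml1 (0.362, 0.539 and 0.595), and for Mybpc3 Mat2a, Bod1 and Rusc2 (0.816, 0.851 and 0.885). The likeness is over 6 libraries that share their list lengths.

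Relatives of the members that serve other muscles and cells were counted in the same way. Of the 6 skeletal and embryonic myosin heavy chain genes Myh1, Myh2, Myh3, Myh4, Myh8 and Myh13, 0 had a peak in the window in any library. Of the 4 non-muscle and smooth muscle genes Myh9, Myh10, Myh11 and Myh14, 1, 4 and 4 had one in the WT libraries and 3, 0 and 1 in the HOM libraries. Of Mybpc1, Mybpc2, Mybph and Mybphl, the other myosin-binding proteins, 2, 3 and 3 had one in WT and 2, 0 and 2 in HOM. Mybpc1 and Mybpc2, the slow and fast skeletal forms, had a peak in the window in 5 libraries, but no peak of Mybpc1 lay on the gene body, and those of Mybpc2 did so in WT replicates 2 and 3 only. All 6 thick filament partners tested (Myl2, Myl3, Mylk3, Ttn, Myom1 and Myom2) had a peak in the window in the 5 libraries and 0 did in HOM replicate 2. These shares stand beside the 26.5%, 51.4%, 61.1%, 41%, 2.46% and 20.8% of all genes given above and were not tested against them. By median percentile of covered share, the partners stood above the members in the WT libraries and HOM replicate 3 (94.2 against 82.7 in WT replicate 1). They stood below them in HOM replicate 1 (92.3 against 92.8). The cardiomyocyte markers stood above the members in all 5 libraries with peaks, at 95.0 in WT replicate 1.

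Between genotypes, no gene had a difference in covered length beyond the spread between libraries. Mean covered length was 3471 ± 3120 bases in WT and 880 ± 1076 in HOM at Myh6, 5326 ± 5396 and 936 ± 1169 at Myh7, 4049 ± 2826 and 1129 ± 1292 at Myh7b and 3610 ± 3291 and 805 ± 1015 at Mybpc3 (SD, n = 3 each). The two-sided exact permutation p was 0.3, 0.3, 0.2 and 0.3 in this order, and the smallest p that 3 libraries against 3 allow is 0.1. Lower mean coverage in HOM was the rule genome wide, at 99% of the 13584 windows with a peak and with a median difference of -677 bases, and the mean covered length of whole lists was larger in WT.

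Covered length was therefore also set against the length covered by the whole list, in bases per Mb. Myh6 stood at 35.4, 117 and 116 bases per Mb in the WT libraries and at 121, 0 and 124 in the HOM libraries. Myh7 stood at 35.4, 150.5 and 197 in WT and 131, 0 and 124 in HOM. Outside HOM replicate 2, the HOM libraries lay above WT replicate 1 at both genes. At Myh6 they also lay above WT replicates 2 and 3, at 121 and 124 against 117 and 116. The share of all windows with this order was not computed, so it is a description.

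At Myh7b the relative covered length was 229.9, 111 and 128 bases per Mb in the WT libraries and 148, 0 and 187 in the HOM libraries. The corresponding Mybpc3 values were 42.6, 116 and 123 in WT and 113, 0 and 103 in HOM. WT replicate 1 was thus the highest library at Myh7b and the lowest with peaks at the other 3 genes.

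The mean differences, HOM minus WT, were -8.17 bases per Mb at Myh6 (exact permutation p = 1), -43.0 at Myh7 (p = 0.5), -44.6 at Myh7b (p = 0.6) and -21.9 at Mybpc3 (p = 0.5), each two-sided. Genome wide, 87% of the windows with a peak had a lower mean in HOM. The sign rested on single libraries at 3 of the 4 genes. Without HOM replicate 2, which had 0 peaks at the members, the differences were 32.6 at Myh6, -0.669 at Myh7, 11.2 at Myh7b and 14.2 at Mybpc3, while 73.1% of windows had a lower mean in HOM. At Myh6 the difference was also 5.73 without WT replicate 2 and 5.04 without WT replicate 3.

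The sets of libraries by Y chromosome peaks, which were formed after the data were seen, gave opposite directions in covered length. HOM replicate 1 exceeded WT replicate 1 by 1843 bases at Myh6, 2009 at Myh7, 1000 at Myh7b and 1660 at Mybpc3. In the other 4 libraries HOM minus WT was -4807.5, -7589.5, -4880 and -5038 bases in the same order. The difference per Mb was 85.5, 95.2, -82.3 and 70.5 in the first set and -55.0, -112, -25.7 and -68.1 in the second. Without HOM replicate 2 the second set stood at 6.75, -50.4, 67.7 and -16.4, so that the sign turned at Myh6 and Myh7b. Differences within these sets were not tested.

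**Figure D5:**
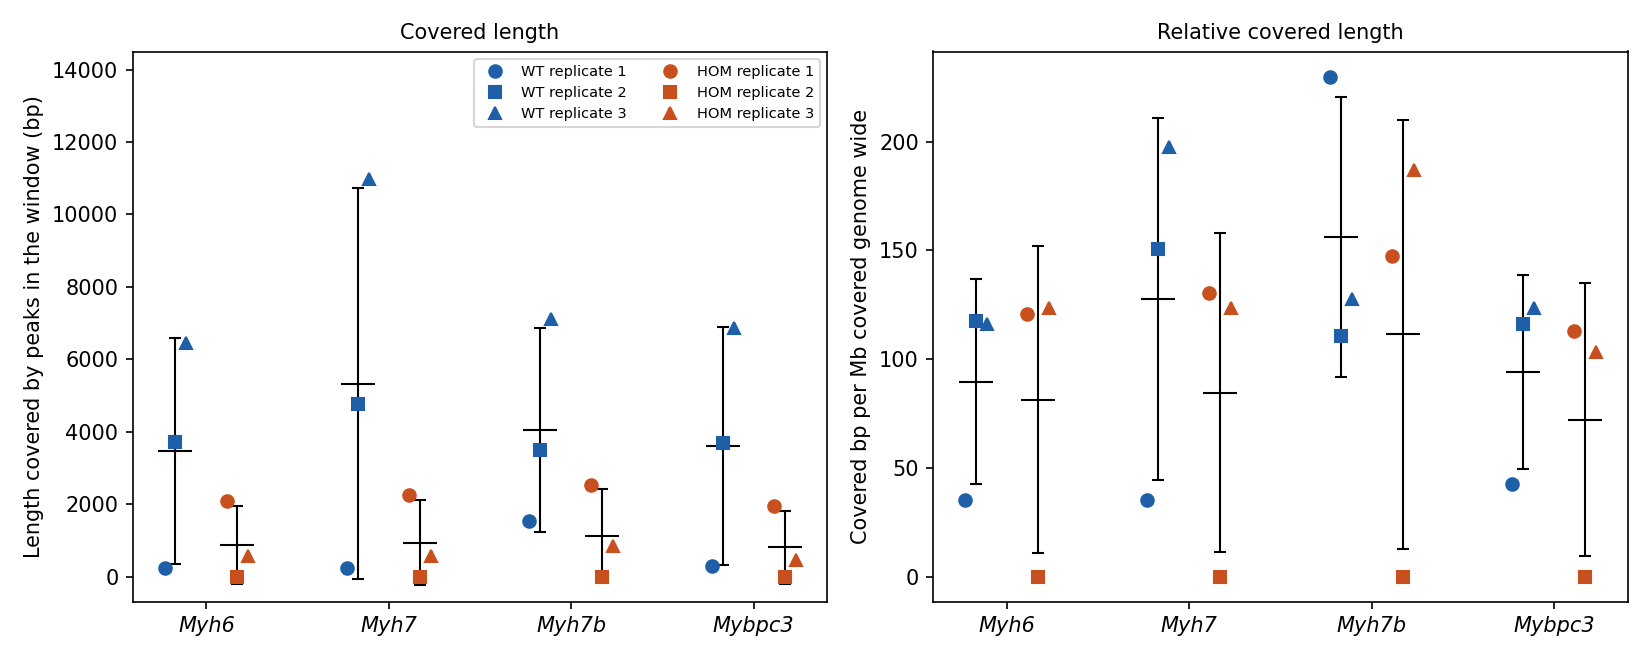
Length covered by peaks in each window (left, bases) and the same per Mb covered genome wide by the library (right), for the 4 genes in WT (blue) and HOM (orange); points are libraries, horizontal lines means and whiskers SD (n = 3). WT replicate 3 had the longest coverage at every gene, HOM replicate 2 stood at 0, and the genotypes overlapped on both scales.

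At equal list lengths, the peaks that remained were few. With every list limited to its 1462 peaks of highest −log10 q, WT replicate 2 kept 1 peak at Myh6 and Myh7 and 1 at Myh7b, HOM replicate 3 kept 1 at Myh7b and 1 at Mybpc3, and the other 4 libraries kept 0. Of all genes, 3.92%, 4.34% and 4.45% in the WT lists and 4.25%, 2.46% and 3.82% in the HOM lists had a peak at that length. With 5 lists limited to 15184 peaks, all 4 genes still had a peak in the window in each list. At Myh7 every peak kept was one also counted for Myh6, apart from WT replicate 3, which kept 5 at Myh7 and 3 at Myh6. Myh7 peaks kept by WT replicate 1, by WT replicate 2 and by HOM replicate 1 all lay outside its gene body. Myh6 then had 1, 2 and 3 peaks in the WT libraries and 1 and 2 in HOM replicates 1 and 3. Myh7b had 4, 3 and 2 in WT and 2 and 2 in HOM, and Mybpc3 1, 5 and 1 in WT and 2 and 2 in HOM. The share of all genes with a peak at that length was 21.9%, 24.1% and 28.6% in the WT lists and 22.7% and 20.8% in HOM.

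Peaks within 10 kb of each other were also joined into domains and ranked by covered length within each library. The domain at the Myh6 start ranked 5330 of 7654, 1910 of 16727 and 821 of 20898 in the WT libraries and 1997 of 12421 and 2045 of 5999 in HOM replicates 1 and 3. In WT replicate 3 it joined 30 peaks over 63230 bases and took in the start of Myh7 as well. The domain at the Myh7b start ranked 978, 2429 and 1753 in WT and 1564 in HOM replicate 1, and that at the Mybpc3 start 4825, 2023 and 1805 in WT against 2347 and 2400 in HOM replicates 1 and 3.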

How the data were processed

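Per the submitters' processing notes, BWA and MACS2 were used with mm10; the versions are not given in the sources used here. Deposited peak lists, 1 per library and not pooled, hold a score, a fold at the summit (column 7), the −log10 p-value, the −log10 q-value and the distance of the summit from the peak's start. All are the authors' values, compared only among peaks of the same list. Sample titles gave the genotype and the replicate number.

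Gene bodies, starts and sequences came from RefSeq tables of GRCm38.p6, with 1-based positions. Peaks were united per library, and covered length was counted in each gene body plus 10 kb and per Mb covered by the whole list. Touching peaks of all libraries were merged into regions. Ranks by fold gave ties their highest rank. Genotypes were compared by two-sided exact permutation tests over 20 assignments, and Myh6 with Myh7 by exact sign-flip tests over 64 sign assignments. The named genes were the 4 members, the annotated genes in or beside their windows, the 3 genes with the nearest percentiles, and fixed lists of relatives, partners and cell type markers. The members and lists were chosen with earlier results of these data known. Alternatives were stronger peaks, equal list lengths, a −log10 q of at least 5, other flanks and overlaps, each library left out and a replicate block. The coverage step was tested on simulated data (0 mismatches in 200 trials), and the permutation tests differed from scipy in 0 cases. Same-numbered libraries did not deviate together, but list length bears on this and cannot be separated from pairing. The block is therefore reported only as an alternative. The software was scipy 1.17.1, numpy 2.4.6 and pandas 2.3.3 under Python 3.11.15, with figures from matplotlib 3.10.9. Read depth is unknown, and no interval was computed from it.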

Additional observations from a re-analysis of the deposited data

How the results depend on the processing

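Over 9 results and 127 alternatives, 112 kept the direction and 15 reversed it. The threshold of 0.05 says nothing of stability here, since the smallest possible p was 0.1 for 3 libraries against 3. For Myh6 against Myh7 it was 0.0625 with 1 library at 0. With the Myh6 body ended at its RefSeq start, where WT replicate 1 and HOM replicate 2 were at 0, it was 0.125 by the sign-flip test. The direction of the HOM minus WT difference per Mb turned at Myh6 without WT replicate 2, WT replicate 3 or HOM replicate 2 (5.73, 5.04 and 32.6 bases per Mb). At Myh7b it turned to 162 with all lists at the shortest length, to 0.861 with 5 libraries at equal length, to 67.3 at a −log10 q of at least 5 and to 11.2 without HOM replicate 2. At Mybpc3 it turned to 114, to 7.22 at that q and to 14.2 without HOM replicate 2, and its covered length turned to 97 bases at the shortest length. The Myh6 minus Myh7 share turned to -2.34 percentage points with the outer 10 kb added, to -1.97 with the Myh6 body ended at its RefSeq start and to -0.0202 and -0.0139 without WT replicates 1 and 2. The causes were not tested. Leaving out 1 library at a time, covered length differences ranged from -4208 to -1095 bases at Myh6, -6934 to -1561 at Myh7, -4175.5 to -1390 at Myh7b and -4468 to -1177.5 at Mybpc3. Per Mb they ranged from -35.3 to 32.6, -89.2 to -0.669, -82.3 to 11.2 and -47.7 to 14.2, and the Myh6 minus Myh7 share from -0.0202 to 0.503. The alternatives at RefSeq starts were chosen after seeing the data, and without HOM replicate 2 the difference within 1 kb of the starts was 16.5 percentage points. The replicate block left every mean difference as it was (-2591 bases at Myh6), with exact sign-flip p from 0.5 to 1 and 0.25 the smallest it allows. The correlations of same-numbered libraries were -0.894, -0.431 and -0.700. WT replicate 1, a short list, stood at 0.846 and 0.722 with the short lists of HOM replicates 2 and 3. These correlations run with list length, so they cannot show whether the numbers pair the libraries. List length, from 1462 to 106605 peaks, limits what each library could show.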
